A study of Mus musculus with 12 samples.

Results

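The comparison asks how the response of mouse peritoneal cells to interferon beta (IFN-β) differed between wild-type mice and mice without Ifnar2, and which genes made up that difference. All 12 arrays of the series entered it, as 4 groups of 3. The difference was the Ifnar2-/- response, IFN-β minus phosphate-buffered saline (PBS), minus the wild-type response, and it was computed for 18276 genes. The groups were wild-type mice given PBS, wild-type mice given IFN-β, Ifnar2-/- mice given PBS and Ifnar2-/- mice given IFN-β. Per the labels, all mice were females of 8 weeks of the strain 129S2/SvPas*BALB/c. Cells were taken 3 hours after intraperitoneal injection, with IFN-β stated as 10000 IU/ml and no volume given. Peritoneal exudate cells, the mixed leukocytes and shed lining cells of the abdominal cavity, were flushed out and lysed at once. Each array came from a different mouse. The labels do not say whether the wild-type and Ifnar2-/- mice were littermates, and PBS is the single control injection they describe.

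IFN-β is a type I interferon, which signals through a receptor of 2 chains, IFNAR1 and IFNAR2. In the canonical pathway the kinases TYK2 and JAK1, bound to these chains, phosphorylate STAT proteins. With IRF9 these form a complex that binds the interferon-stimulated response element in the promoters of antiviral genes. NF-kB and AP-1 are other transcription factors, best known for inducing chemokines and cytokines in activated macrophages. The series' title concerns an IFN-β signalling axis through IFNAR1, and the comparison therefore bears on the part of the IFN-β response that requires the IFNAR2 chain.

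Every array held 43379 spots for 41174 probes. The values are log2 of the deposited signal minus the 75th percentile of the array, called relative signal here, and a difference of 1 is a doubling. Array slides 1 and 2 held 8 arrays with 65.2% to 71.6% of spots well above background. Slide 3 held Ifnar2-/- arrays alone, replicates 2 and 3 of both treatments, with 59.4% to 62.5%. All 3 wild-type PBS arrays lay on slide 1, with replicate 1 of wild-type IFN-β, and the other two wild-type IFN-β arrays on slide 2, so slide and treatment are largely confounded in wild type. The 15 tested markers of large peritoneal macrophages, the main resident cell of the cavity, were well above background on all 12 arrays. Of 2 probes for Ifnar2 itself, one had a relative signal of 4.64 ± 0.23 (SD, n = 3) in wild-type PBS mice and 2.79 ± 0.14 in Ifnar2-/- PBS mice. The other went the opposite way, at 1.64 ± 0.07 and 2.59 ± 0.10. The position of these probes relative to the deletion was not known, so neither probe checks the genotype.

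The responses of the genotypes differed for 3247 of 18276 genes (17.8% of genes tested, limma, adjusted p under 0.05). The difference was negative, that is, the Ifnar2-/- response lay below the wild-type response, for 1661 genes (9.09%). It was positive for 1586 genes (8.68%). In wild type 7205 genes responded to IFN-β (39.4%), 3217 upwards and 3988 downwards, and 4427 with the slide as a block. In Ifnar2-/- mice 207 genes responded (1.13%), 169 upwards and 38 downwards. The count of 207 was 32 without Ifnar2-/- PBS replicate 2 and 298 without Ifnar2-/- IFN-β replicate 1. Both responses passed the test for 152 genes, which are 2.11% of the wild-type calls and 73.4% of the Ifnar2-/- calls. Of these, 143 moved in the same direction and 9 in opposite directions. Over 15296 genes well above background on all 12 arrays the responses correlated at r = 0.38, which is across genes of the same arrays. Log2 values with no scaling between arrays moved the median difference over all genes from 0.03 to 0.31 and the positive share of the calls from 48.8% to 71.2%, and the responses below are relative to each array's 75th percentile. With the slide as a block in the fit 1921 genes differed, 1826 of them among the 3247, and without the 4 arrays of slide 3 the number was 1290.

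**Figure D1:**
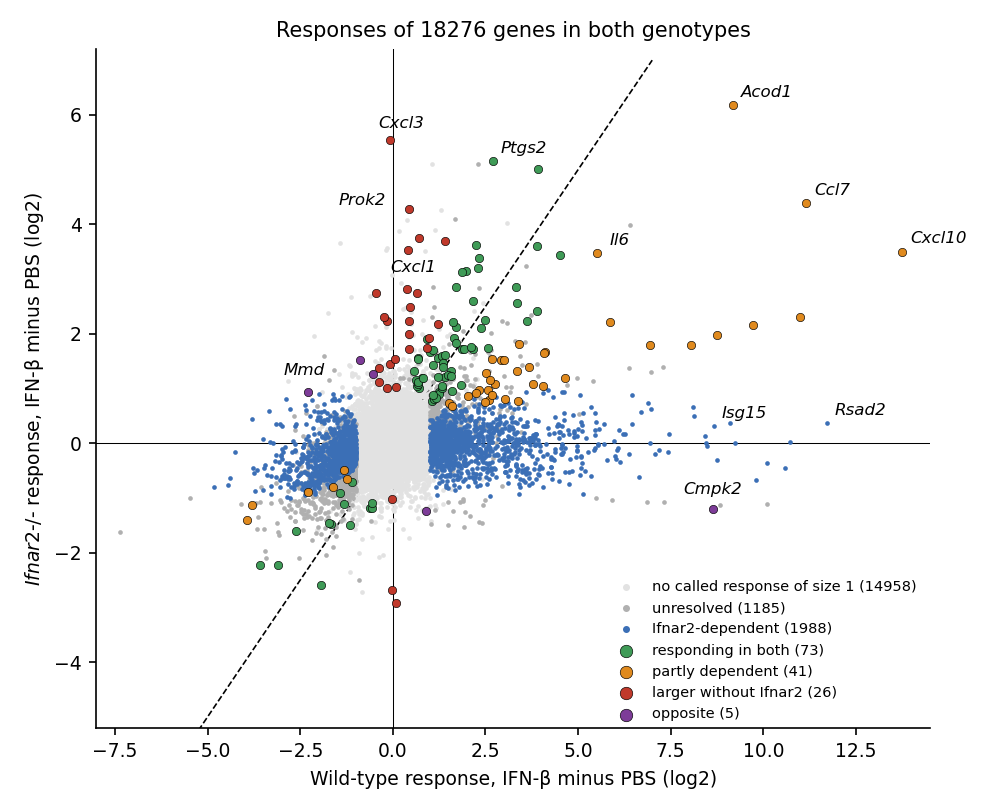
Response to IFN-β in wild type (x axis, log2) against the response in Ifnar2-/- mice (y axis, log2) for each of the 18276 genes, coloured by class, with the dashed line marking equal responses. The Ifnar2-dependent genes lie along the x axis out to Rsad2 at 11.71, and the partly dependent genes lie between that axis and the dashed line.

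Genes were classed by rule from the 3 contrasts, so membership is a description and was not tested again. A response had to pass the test with a size of at least 1 in either genotype, which 3318 genes did. The Ifnar2-dependent class, with a difference that passed the test and an Ifnar2-/- response that neither passed nor reached 1, held 1988 genes. With the slide as a block 1379 of these 1988 genes kept the class. Partly dependent genes, which responded in both genotypes the same way but less without Ifnar2, numbered 41. Genes that responded in both with no difference that passed the test numbered 73. A larger response without Ifnar2 was found for 26 genes, and 5 genes responded in opposite directions. The other 1185 responders were unresolved, mostly (1122) because the wild-type response passed and neither the Ifnar2-/- response nor the difference did. The smaller classes rest on single arrays: without Ifnar2-/- PBS replicate 2 they held 6 partly dependent genes, 16 responding in both and 10 with a larger response, and without Ifnar2-/- IFN-β replicate 1 they held 44, 127 and 48. Next to the threshold, Ccsap was just inside the dependent class with an adjusted p of 0.0498 for its difference, and Acap1 just outside with 0.0501.

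Raised genes were also counted by the size of the wild-type response. Of 975 genes raised by 1 to 2 log2 units in wild type 65.1% were dependent, of 468 raised by 2 to 4 units 77.4%, and of 154 raised by 4 or more 79.9%. The unresolved shares of these bins were 31.2%, 15.2% and 9.74%, so the dependent shares were higher where fewer genes were unresolved. In that last group the difference passed the test in the attenuating direction for 151 genes (98.1%). It held 123 dependent and 14 partly dependent genes, 1 gene that responded in both genotypes (Il1rn, the interleukin-1 receptor antagonist), 1 opposite gene and 15 unresolved genes. Among the 1363 genes lowered by 1 to 2 units 681 were dependent and 672 unresolved.

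The dependent class held 1120 raised genes, with a median response of 1.80 in wild type and 0.01 in Ifnar2-/- mice. Its core was the antiviral effectors, proteins that block viral entry, translation or replication. All 35 tested members of this list had a negative difference that passed the test (background 9.09%), with median responses of 4.97 in wild type and -0.07 in Ifnar2-/-, against medians of -0.04 and -0.05 over all genes. By class, 31 were dependent, Oasl1 was partly dependent, Cmpk2 was opposite, and Ifit3 and Mx2 were unresolved. The 35 differences passed the test also with the slide as a block.

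Isg15, a ubiquitin-like protein that is conjugated to other proteins in infected cells, had relative signals of -1.36, -1.16 and -1.01 in wild-type PBS mice and 7.58, 7.41 and 7.45 in wild-type IFN-β mice. Without Ifnar2 the signals were -2.28, -2.51 and -2.82 after PBS and -2.08, -2.37 and -2.21 after IFN-β. The wild-type groups stood far apart, and the Ifnar2-/- groups overlapped. The responses were 8.66 ± 0.15 (SE) and 0.32 ± 0.15, and the difference was -8.34 ± 0.22 (adjusted p = 1.99e-08). Rsad2, which encodes viperin, an enzyme that makes a chain-terminating nucleotide, had signals of -3.62, -3.97 and -4.16 in wild-type PBS mice and 7.78, 7.64 and 7.94 after IFN-β. The Ifnar2-/- signals were -5.98, -6.48 and -4.75 after PBS and -4.88, -5.49 and -5.76 after IFN-β, again overlapping. The probe was well above background on 2 of these PBS arrays and 1 of these IFN-β arrays. The Ifnar2-/- response thus rests on signals near background. Its wild-type response of 11.71 ± 0.38 was the largest in the class, the Ifnar2-/- response was 0.36 ± 0.38, and the difference was -11.34 ± 0.54 (adjusted p = 5.31e-07).

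The other members named by rule had the same form. Ifit2, an RNA-binding inhibitor of translation, had responses of 9.81 and -0.67, and Mx1, a dynamin-like GTPase, of 8.48 and -0.04. In Ifnar2-/- mice Ifit2 was well above background on 2 PBS arrays and 1 IFN-β array, and Mx1 on 1 of each. Their Ifnar2-/- responses thus rest on signals near background. Tgtp1, an immunity-related GTPase that acts on pathogen vacuoles, had 7.18 and -0.12. Apol9b, of the apolipoprotein L family, had 7.44 and 0.16, and Chit1, a chitinase of activated macrophages, had 6.37 and -0.20. At baseline, Isg15, Usp18, Tgtp1, Rsad2 and Mx1, 5 of the 8 raised dependent genes named by rule, were lower in Ifnar2-/- than in wild-type PBS mice. The gap was 1.36 ± 0.15 for Isg15 (limma, adjusted p = 0.000672) and 3.93 ± 0.42 for Usp18 (adjusted p = 0.000471). For these 5 genes the difference in response adds to a difference in starting level. The share of all genes lower at baseline was not counted, so the 5 of 8 has no background beside it. Rsad2 and Mx1 were well above background on 2 and 1 of the Ifnar2-/- PBS arrays, so their gaps rest on signals near background. Usp18 was well above background on 2 of 3 arrays in each Ifnar2-/- group.

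The promoters of 3 dependent genes carry the interferon-stimulated response element, searched on both strands as GAAA, any 2 bases, GAAA. They are shown as examples of antiviral genes whose windows hold these letters, which other strongly raised genes such as Acod1, Cmpk2 and Chit1 lack in theirs. Each is the 250 bases before the RefSeq start in GRCm38.p6, read 5′ to 3′ on the strand of the gene, with matches in capitals, and lies at chr4:156200819-156201068 (minus strand) for Isg15, chr19:34640639-34640888 (plus) for Ifit1 and chr12:26456453-26456702 (minus) for Rsad2.
Isg15: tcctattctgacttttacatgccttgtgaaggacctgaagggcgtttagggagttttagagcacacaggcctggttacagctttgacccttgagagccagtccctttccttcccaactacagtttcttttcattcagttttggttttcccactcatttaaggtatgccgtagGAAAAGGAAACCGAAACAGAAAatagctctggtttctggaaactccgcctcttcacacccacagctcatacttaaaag
Ifit1: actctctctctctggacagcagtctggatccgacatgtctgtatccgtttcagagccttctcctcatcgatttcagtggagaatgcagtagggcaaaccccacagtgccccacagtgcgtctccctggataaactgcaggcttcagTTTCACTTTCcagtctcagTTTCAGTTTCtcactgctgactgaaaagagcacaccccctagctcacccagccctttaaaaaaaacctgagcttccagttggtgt
Rsad2: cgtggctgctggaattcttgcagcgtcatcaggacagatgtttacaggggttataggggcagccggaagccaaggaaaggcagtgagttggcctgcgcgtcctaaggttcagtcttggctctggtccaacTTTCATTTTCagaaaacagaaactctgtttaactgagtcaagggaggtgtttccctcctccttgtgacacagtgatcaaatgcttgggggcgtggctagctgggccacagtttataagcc
Isg15 holds 3 overlapping matches that begin 78 bases before the start, Ifit1 holds 2 separate matches from 104 bases before it, and Rsad2 holds 1 match from 120 bases before it. The Ifit1 and Rsad2 matches read on the opposite strand.

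**Figure D2:**
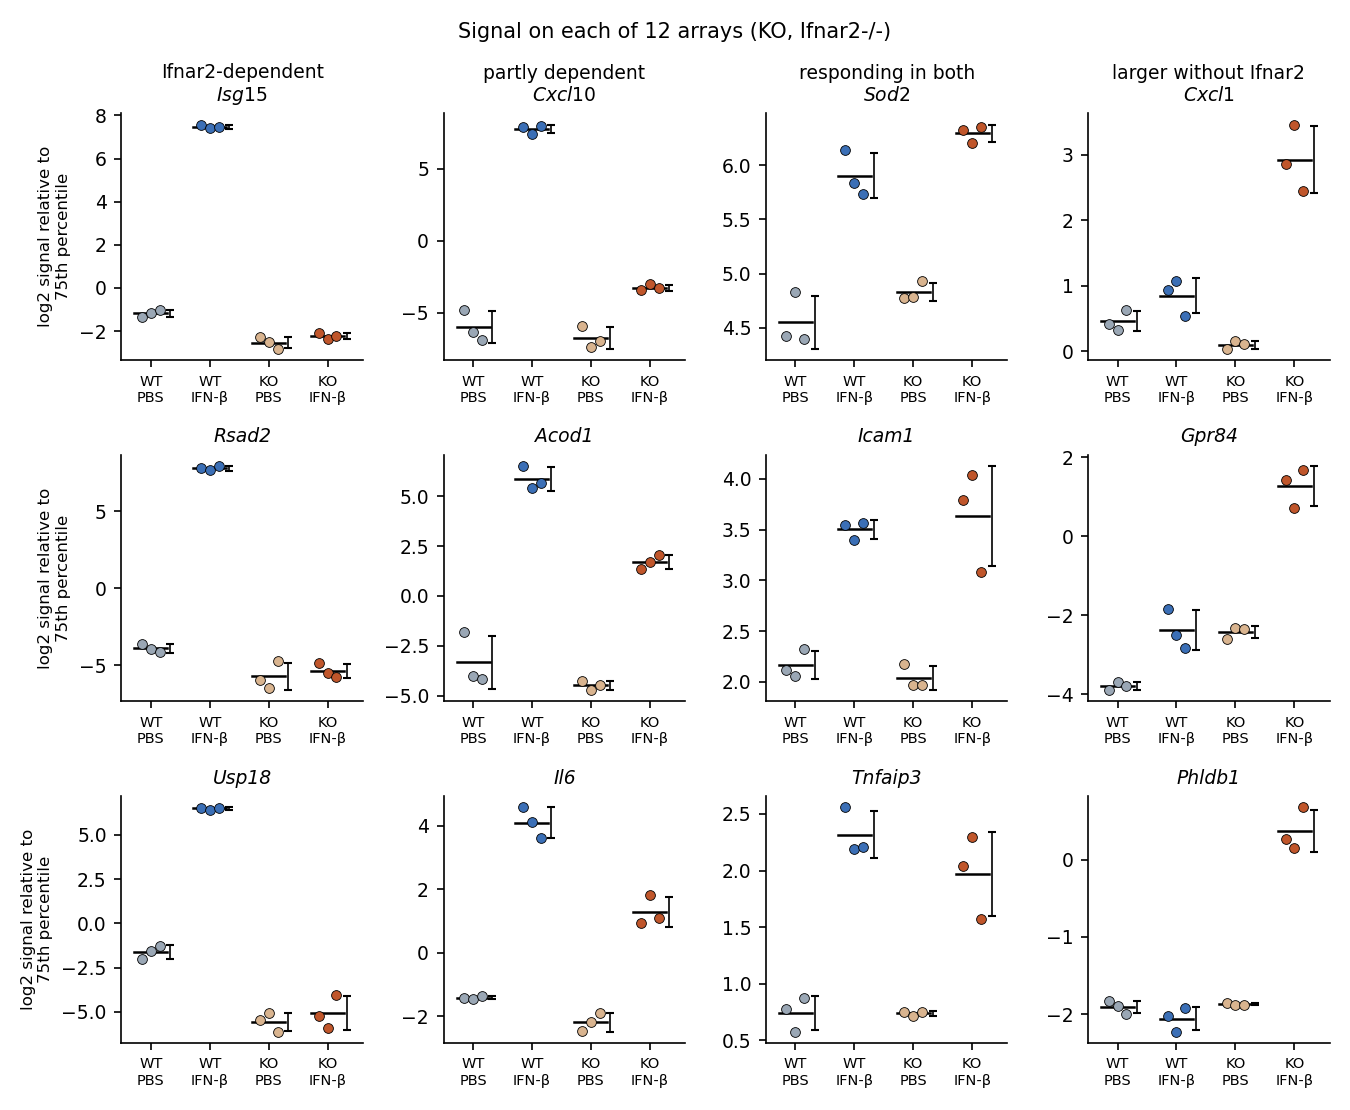
Relative signal (log2) of 12 genes on each array, 1 column of panels per class, with a point per array, a line at the group mean and a bar for 1 SD (n = 3). After IFN-β in Ifnar2-/- mice (KO), Isg15 stayed between -2.37 and -2.08, Il6 reached 0.94 to 1.81, and Cxcl1 reached 2.45 to 3.46.

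Among 28 genes of the receptors, JAK-STAT signalling and feedback, 9 had a negative and 2 a positive difference that passed the test (background 9.09% and 8.68%), with medians of 0.42 and 0.22 for the responses. Of the 9, 8 were dependent and Socs1 was unresolved. The dependent ones included Usp18, a protease that removes ISG15 and blocks signalling at the receptor (responses 8.12 and 0.50), and Irf7, the factor that amplifies interferon production (6.47 and 0.35). The signal transducer Stat2 (3.58 and -0.11) and its partner Irf9 (1.73 and 0.17) belonged to them too. Socs1, a feedback inhibitor of JAK kinases, had a difference of -4.27 that passed the test and less even signals: its Ifnar2-/- signals of -0.10, 0.46 and 1.87 after IFN-β stood above -0.66, -0.35 and -0.15 after PBS, a response of 1.13 that did not pass the test (adjusted p = 0.188). The receptor chains Ifngr1 and Il10rb, for interferon gamma and interleukin 10, had positive differences of 0.85 and 0.79, which no longer passed with the slide as a block (adjusted p = 0.0520 and 0.175). For Cish, a STAT5 target, the difference was 1.80 ± 0.72 and did not pass the test, with replicate 3 of the Ifnar2-/- IFN-β group at 3.14 and the other two at 0.47 and 1.29.

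Dependence extended to the sensors of nucleic acid, of which 13 of 16 had a negative difference (background 9.09%, also for the GTPases). Ifih1, a cytoplasmic sensor of double-stranded RNA, had responses of 5.18 and -0.52, and Tlr3, its endosomal counterpart, of 5.07 and -0.25. Of the 3 members whose difference did not pass, Ticam1 and Mavs, the adaptors of these sensors, had differences of 0.11 and 0.10, and Tlr9 had -0.17. All 14 interferon-inducible GTPases, which attack the vacuoles of intracellular pathogens, had a negative difference, from -7.94 for Iigp1 to -2.26 for Gvin1, with median responses of 4.86 and 0.04.

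Peptide presentation to T cells divided by pathway. Of 13 tested genes of MHC class I presentation 9 had a negative difference (background 9.09%), led by the peptide transporter subunit Tap1 (3.31 and -0.17) and the immunoproteasome subunit Psmb9 (2.37 and -0.21). The class I chains H2-K1 and H2-D1 had differences of -0.38 and -0.41, which did not pass the test. None of the 11 genes of MHC class II presentation passed in limma, against 1 with an unadjusted p under 0.05, and the extremes were Ctss at -0.36 and H2-DMb2 at 0.80. In the list of cell death and inflammasome genes 10 of 20 had a negative difference (background 9.09%). Mlkl, the executioner of necroptosis, had responses of 4.49 and 0.10, and Daxx, a nuclear regulator of apoptosis, 4.22 and 0.17. The 1 positive difference, 0.60 for Casp9, did not pass with the slide as a block (adjusted p = 0.127).

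Several dependent genes could only be bounded, because their probes were not well above background in whole groups. A bound sets the bright group's mean against the lowest signal counted as above background on each array of the dim group. Cxcl11, a chemokine for T cells and natural killer cells, had signals of 3.14, 2.03 and 2.17 in wild-type IFN-β mice and was not well above background on the other 9 arrays. Its wild-type response was at least 501-fold, and no fold was given for Ifnar2-/- mice. Ddx4, an RNA helicase best known from germ cells, showed the same pattern with 0.80, 0.55 and 0.78 and a wild-type response of at least 149.8-fold. Ifit1 had 6.24, 6.17 and 6.43 in wild-type IFN-β mice and was not well above background in either Ifnar2-/- group, where the signals lay between -7.50 and -5.74. In all, 77 of the 1988 dependent genes were dim in both Ifnar2-/- groups, which leaves their responses there without a measured size.

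The 868 lowered dependent genes had a median response of -1.48 in wild type and -0.23 in Ifnar2-/-. Tcim, a small regulator of transcription, fell from signals of 1.15, 2.00 and 1.56 to -1.66, -2.34 and -1.31 in wild type. In Ifnar2-/- mice it was at 2.30, 2.32 and 2.66 after PBS and at 2.47, 2.46 and 4.11 after IFN-β, so that the groups overlapped and the difference between responses was 3.92 ± 0.61 (adjusted p = 0.00141). Pdgfa, a growth factor, had responses of -2.78 and 0.63, Angptl4, an inhibitor of lipoprotein lipase, of -3.77 and -0.46, and DXBay18 of -3.24 and 0.00.

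Some cell type markers belonged to the dependent class, and because whole cell mixtures were measured, fewer cells of a type and less RNA per cell cannot be told apart. Of 9 tested monocyte and small macrophage markers 4 had a negative and 2 a positive difference (background 9.09% and 8.68%, also for the markers that follow), with Ms4a4c at responses of 4.97 and -0.13 and Cx3cr1 at -3.02 and -0.22. Their summed level lay between 125.5 and 182.9 in wild-type PBS mice, 410.8 and 473.6 in wild-type IFN-β mice, and 148.9 and 177.3 over all Ifnar2-/- arrays. Of 11 B cell markers 3 had a positive difference, Fcer2a, Cr2 and Ebf1 (2.26, 1.91 and 1.80), with wild-type responses of -2.45, -2.09 and -2.21. The other 8 B cell markers did not pass, Ighm and Ms4a1 among them at -0.02 and -0.34. Of 8 dendritic cell markers Ccr7, Siglech and Flt3 had positive differences and Clec9a a negative one. Of 13 T and natural killer cell markers 1 had a negative difference, under the background, and 3 a positive one. The part of these markers in the class counts was not tested.

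The partly dependent class was led by chemokines, the secreted proteins that draw leukocytes into tissue. Of 14 tested CXCR3 ligands and CC chemokines 8 had a negative difference (background 9.09%), and 6 of them kept an Ifnar2-/- response that passed the test. These 6 were Cxcl10, Ccl12, Cxcl9, Ccl7, Ccl2 and Ccl4, and the list's median responses were 6.12 and 1.89. Over all 35 raised partly dependent genes the Ifnar2-/- response was a median of 39.1% of the wild-type response on the log2 scale, from 21.0% to 67.4%, with median responses of 3.38 and 1.32. In 4 of the 35 a whole group was not well above background. The low end is Ccl12, well above background on 0 wild-type and 1 Ifnar2-/- PBS array. Ch25h (22.3%) was dim in both PBS groups, and Cxcl9 (22.7%) was well above background on 1 PBS array of each genotype. The low shares of these genes rest on signals near background.

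Cxcl10, a ligand of CXCR3 on T cells, had the largest wild-type response of any gene, from signals of -4.77, -6.33 and -6.89 after PBS to 7.91, 7.42 and 7.94 after IFN-β. Without Ifnar2 it was at -5.93, -7.36 and -6.96 after PBS and at -3.41, -3.02 and -3.31 after IFN-β. The Ifnar2-/- groups did not overlap, and the IFN-β group stayed far below that of the wild type. Because 1 of 3 PBS arrays of each genotype was well above background, the responses of 13.75 ± 0.5 and 3.5 ± 0.5 rest on dim starting levels; the difference was -10.25 ± 0.70 (adjusted p = 4.91e-06). Ccl7, an attractant of monocytes, was measured on all arrays, with Ifnar2-/- signals of -3.76, -4.14 and -3.85 after PBS and -1.07, 0.37 and 2.12 after IFN-β. Its responses were 11.15 ± 0.62 and 4.39 ± 0.62.

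Acod1, the enzyme that makes itaconate in activated macrophages, had the largest Ifnar2-/- response of any gene that passed the test. Wild-type signals went from -1.80, -3.99 and -4.18 to 6.51, 5.39 and 5.64, and Ifnar2-/- signals from -4.29, -4.72 and -4.44 to 1.35, 1.70 and 2.05. All 3 IFN-β arrays lay above all 3 PBS arrays in each genotype. The Ifnar2-/- response of 6.18 ± 0.55 was 67.4% of the wild-type response of 9.17 ± 0.55, and the difference of -2.99 ± 0.77 had an adjusted p of 0.0225, which became 0.199 without the arrays of slide 3. Il6, a cytokine of fever and the acute phase, went from -1.42, -1.46 and -1.37 to 4.58, 4.10 and 3.61 in wild type. Without Ifnar2 it went from -2.48, -2.20 and -1.89 to 0.94, 1.81 and 1.10. Its responses were 5.51 ± 0.28 and 3.47 ± 0.28, and the difference was -2.04 ± 0.39 (adjusted p = 0.00473).

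Other cytokines and mediators in the class were Il10, an anti-inflammatory cytokine, Osm, a relative of interleukin 6 (3.01 and 1.52), and Arg1, the arginine-degrading enzyme (2.92 and 1.51). The smaller Arg1 response started from a higher level, with mean signals after PBS of 3.24 in Ifnar2-/- and -0.75 in wild-type mice. After IFN-β the means were 4.76 and 2.18, so Arg1 stayed higher without Ifnar2. The Il10 probe was not well above background in either PBS group, and its responses were at least 8.23-fold in wild type and at least 2.07-fold in Ifnar2-/- mice. Il10 and Osm lost the call with the slide as a block (adjusted p = 0.106 and 0.0521). Ch25h, which makes the antiviral sterol 25-hydroxycholesterol, was not well above background in either PBS group, and its responses were at least 521-fold and at least 1.72-fold. Also in it were Oasl1 (8.05 and 1.79), the inflammatory caspase Casp4 (2.59 and 0.78), the adaptor Myd88 (2.48 and 0.75) and Gch1, of tetrahydrobiopterin synthesis (3.02 and 0.81). Nr1d1, the clock repressor REV-ERB alpha, was one of 6 lowered members. It went from -0.50, 0.03 and -0.52 to -4.21, -4.24 and -3.97 in wild type and from -0.36, -0.29 and 0.04 to -1.04, -1.45 and -1.52 in Ifnar2-/- mice, with responses of -3.81 ± 0.19 and -1.13 ± 0.19.

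Cxcl10 and Il6 are shown because their promoters hold the NF-kB motif, with the interferon-stimulated response element in Cxcl10 and without it in Il6. Both also hold an AP-1 match, which is not in capitals. The 250 bases before each start lie at chr5:92348890-92349139 (minus) and chr5:30012864-30013113 (plus), with matches to either motif in capitals.
Cxcl10: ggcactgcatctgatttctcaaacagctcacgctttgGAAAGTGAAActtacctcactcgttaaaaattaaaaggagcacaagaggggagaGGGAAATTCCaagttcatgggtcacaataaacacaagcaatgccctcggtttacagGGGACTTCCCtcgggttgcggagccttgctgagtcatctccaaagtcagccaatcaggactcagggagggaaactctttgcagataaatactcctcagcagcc
Il6: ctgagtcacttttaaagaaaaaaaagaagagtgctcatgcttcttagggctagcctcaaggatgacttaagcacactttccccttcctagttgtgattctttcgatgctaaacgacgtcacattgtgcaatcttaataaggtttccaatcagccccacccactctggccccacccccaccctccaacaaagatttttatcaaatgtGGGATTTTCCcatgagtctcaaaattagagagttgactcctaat
In Cxcl10 the response element begins 213 bases before the start and 2 NF-kB matches follow, the first from 159 bases before it. In Il6 the NF-kB match begins 44 bases before the start. None of these matches overlaps another.

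The 73 genes that responded in both genotypes had near-equal median responses, 1.52 and 1.60 for the 60 raised and -1.42 and -1.47 for the 13 lowered. The class rule leaves out genes with a called difference, so near-equal medians are built into it. A missed threshold does not show equality, so the 28 genes whose 95% interval of the difference lay within -1 to 1 were counted apart. The list of NF-kB subunits, feedback inhibitors and target enzymes also holds other genes, such as Icam1, Marcksl1 and Ier3. It supplied 10 of the 73, from 33 tested, where the class held 0.40% of all genes tested. The list was chosen with earlier results of these data known. In that list 3 genes had a negative and 2 a positive difference, which is 5 of 33 beside a background of 17.8%, and its median responses were 1.22 in wild type and 1.23 in Ifnar2-/-. In Ifnar2-/- mice 14 of the 33 responded, beside 1.13% of all genes.

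Sod2, the mitochondrial superoxide dismutase, had signals of 4.43, 4.83 and 4.39 after PBS and 6.13, 5.84 and 5.73 after IFN-β in wild type. Without the receptor chain it went from 4.78, 4.78 and 4.93 to 6.33, 6.20 and 6.35. IFN-β arrays lay above PBS arrays in both genotypes, and the responses of 1.35 ± 0.15 and 1.46 ± 0.15 differed by 0.11, with a 95% interval from -0.35 to 0.58. Icam1, an adhesion molecule for leukocytes, had responses of 1.34 and 1.60 and an interval of the difference from -0.39 to 0.91. Tnfaip3, the feedback inhibitor A20, had 1.57 and 1.23, with an interval from -0.91 to 0.23.

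A narrow interval was a condition of naming for Sod2, Icam1 and Tnfaip3, and for 5 other raised genes. They were the kinase Ikbke (1.91 and 1.72), the formin Fmnl2 (1.86 and 1.72), Tnfaip2 (1.71 and 1.84), the transcription factor Ets2 (1.56 and 1.33) and the receptor of bacterial lipoproteins Tlr2 (1.37 and 1.39). Lowered members were Fbxo32, a ubiquitin ligase subunit (-1.73 and -1.47), Ndnf (-1.32 and -1.12) and Baiap2l1 (-1.42 and -0.91). Tnf, the cytokine, had responses of 2.49 and 2.24 and a difference of -0.24 ± 0.43. Ptgs2, the inducible cyclooxygenase, was well above background on 1 wild-type and no Ifnar2-/- PBS array. Its Ifnar2-/- response was at least 10.2-fold, and the difference between responses did not pass the test (adjusted p = 0.229). The promoter of Sod2, at chr17:13007589-13007838 (plus), is shown for its NF-kB match, in capitals, which begins 83 bases before the start.
Sod2: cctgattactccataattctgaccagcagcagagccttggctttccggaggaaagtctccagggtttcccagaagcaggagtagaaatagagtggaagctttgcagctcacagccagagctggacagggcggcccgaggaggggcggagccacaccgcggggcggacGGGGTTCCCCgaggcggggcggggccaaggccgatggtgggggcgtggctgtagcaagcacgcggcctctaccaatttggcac

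The 26 genes with a larger response without Ifnar2 comprised 23 raised and 3 lowered ones. In 21 of them the wild-type response did not pass the test, and in 5 it did. The raised genes had a median response of 0.40 in wild type and 2.23 in Ifnar2-/-. They included 3 CXCR2 ligands, the chemokines that draw neutrophils. Of the 6 tested CXCR2 ligands and colony-stimulating factors 3 had a positive difference (background 8.68%) and 1 a negative one, Csf1, the macrophage growth factor (responses 3.1 and 0.74).

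Cxcl1 had signals of 0.42, 0.33 and 0.63 after PBS and 0.94, 1.07 and 0.54 after IFN-β in wild type, which overlapped. In Ifnar2-/- mice it went from 0.04, 0.16 and 0.10 to 2.86, 3.46 and 2.45. Its responses were 0.39 ± 0.23 and 2.82 ± 0.23, and the difference was 2.43 ± 0.33 (adjusted p = 0.000553). Cxcl2 went from -0.65, -0.47 and -0.47 to 2.41, 2.54 and 1.69 in Ifnar2-/- mice, against -0.21, -0.25 and -0.29 to 0.66, 0.58 and -0.01 in wild type. Both Ifnar2-/- groups of Cxcl2 were clear of each other, and the difference was 2.09 ± 0.32 (adjusted p = 0.00137). Cxcl3 was well above background on all Ifnar2-/- IFN-β arrays, at -2.63, -1.94 and -0.81, on 1 wild-type PBS array, at -4.35, and on no other. Its Ifnar2-/- response was at least 15.1-fold, and the fitted difference of 5.60 ± 1.28 (adjusted p = 0.0126) did not pass with the slide as a block (adjusted p = 0.0777).

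The promoters of Cxcl1 and Cxcl2, which lie near each other on chromosome 5 at chr5:90890995-90891244 and chr5:90903649-90903898 (both plus), are shown because they hold the same NF-kB letters and no interferon-stimulated response element. The capitals cover 2 overlapping NF-kB matches in each.
Cxcl1: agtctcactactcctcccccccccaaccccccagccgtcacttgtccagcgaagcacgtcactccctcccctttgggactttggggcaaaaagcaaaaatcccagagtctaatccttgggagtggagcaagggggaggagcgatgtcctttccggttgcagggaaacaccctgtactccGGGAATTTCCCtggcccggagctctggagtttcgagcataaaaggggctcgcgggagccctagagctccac
Cxcl2: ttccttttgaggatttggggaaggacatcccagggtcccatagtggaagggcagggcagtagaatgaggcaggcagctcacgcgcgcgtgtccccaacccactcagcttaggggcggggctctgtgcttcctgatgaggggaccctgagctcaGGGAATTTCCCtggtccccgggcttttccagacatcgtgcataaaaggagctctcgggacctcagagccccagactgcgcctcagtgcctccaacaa
The matches begin 71 bases before the start in Cxcl1 and 97 bases before it in Cxcl2.

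Phldb1, a protein with a pleckstrin homology domain, gave the most even signals of the class. It lay between -2.23 and -1.83 on all 9 other arrays and at 0.27, 0.16 and 0.68 on the Ifnar2-/- IFN-β arrays, and its responses were -0.15 ± 0.14 and 2.24 ± 0.14 (difference 2.39 ± 0.20, adjusted p = 2.3e-05). Gpr84, a receptor for medium-chain fatty acids, rose in both genotypes. It went from -3.90, -3.70 and -3.79 to -1.83, -2.50 and -2.83 in wild type and from -2.60, -2.34 and -2.34 to 1.43, 0.72 and 1.69 without Ifnar2, with a difference of 2.29 ± 0.39. Treml4, a receptor of the TREM family on myeloid cells, was at -2.83, -3.15 and -3.65 after PBS and at -1.05, -0.94 and -0.73 after IFN-β in Ifnar2-/- mice. Its wild-type arrays all lay between -3.85 and -2.94, and the difference was 2.54 ± 0.36 (adjusted p = 0.000821).

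Prok2 and Il1b had larger differences and more scatter. Prok2, a secreted protein made by neutrophils and other cells, was at -1.19, -3.64 and -3.85 in wild-type PBS mice and at 1.13, 1.99 and 2.92 in Ifnar2-/- IFN-β mice, with a difference of 3.84 ± 0.91 (adjusted p = 0.0153). Il1b, the inflammatory cytokine interleukin 1 beta, was at 0.18, -2.84 and -1.86 and at 1.36, 2.46 and 3.11 in those groups, with a difference of 3.05 ± 0.92 (adjusted p = 0.0436). Replicate 1 stood above the other wild-type PBS arrays for both genes. With the slide as a block neither passed (adjusted p = 0.0865 and 0.189). Without the arrays of slide 3 the differences were 3.13 and 2.01, with adjusted p of 0.273 and 0.496.

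Other raised members were Mmp14, a membrane-bound matrix protease (0.45 and 2.49), and Nr4a1, an immediate-early nuclear receptor (0.45 and 2.23). Clec4e, the receptor Mincle for mycobacterial glycolipid (1.22 and 2.19), and Irak3, an inhibitor of Toll-like receptor signalling (-0.15 and 1.02), also belonged here. So did Tnfsf9, a T cell costimulator (0.43 and 1.99), whose difference passed the test in 12 of 24 other settings. The calls of Nr4a1, Clec4e and Irak3 were lost with the slide as a block (adjusted p = 0.0976, 0.186 and 0.0570). Ccl22, a ligand of CCR4, was well above background on the 3 Ifnar2-/- IFN-β arrays alone, at -5.88, -3.61 and -3.91, a response of at least 2.38-fold. The lowered members were Fabp5, a fatty acid binding protein, Net1, a guanine nucleotide exchange factor (-0.03 and -1.02), and 1 probe without a gene name. Fabp5 was not well above background on any Ifnar2-/- IFN-β array, and its response there was at least 1.89-fold downwards. The call of Net1 was lost with the slide as a block (adjusted p = 0.174). In 27 other settings of the analysis Cxcl1, Cxcl2, Gpr84, Phldb1 and the unnamed probe kept the class in every one, and Mmp14 and Treml4 in 26. Within slide 2, which held replicate 1 of both Ifnar2-/- groups, the response of Cxcl1 was 2.82 and within slide 3 it was also 2.82, and for Phldb1 the values were 2.13 and 2.30. Other members were less alike, with 3.07 and 2.58 for Cxcl2, 4.02 and 3.54 for Gpr84 and 1.78 and 2.57 for Treml4. Prok2 had 3.57 and 4.63, and Il1b 2.70 and 4.27. Each slide 2 value rests on 1 array per group.

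The level of neutrophil markers varied between arrays. Of 16 tested markers 1, Ngp, had a positive difference that passed the test (background 8.68%), a share under the background, and the median responses were 0.05 in wild type and 2.00 in Ifnar2-/-. None passed in the Ifnar2-/- response in limma, against 9 with an unadjusted p under 0.05. The summed level of the markers was 114.7, 18.6 and 12.97 in wild-type PBS mice and 20.5, 20.05 and 27.9 after IFN-β. The Ifnar2-/- arrays gave 24.4, 18.2 and 23.6 after PBS and 39.8, 96.1 and 212.5 after IFN-β. Replicate 1 of the wild-type PBS group and replicate 3 of the Ifnar2-/- IFN-β group were the 2 highest. S100a9, an abundant neutrophil protein, was at 6.30 and 7.14 on those arrays and between -2.30 and 5.71 on the others. Without these 2 arrays 22 genes had a larger response without Ifnar2, 13 of them among the 26, and the differences were 2.69 for Cxcl1, 2.20 for Phldb1, 2.53 for Prok2 and 1.80 for Il1b. The remaining Ifnar2-/- IFN-β arrays, at 39.8 and 96.1, still lay above every other array left, so the neutrophil difference was not removed. The part of the neutrophil level in any of the 26 genes was not tested.

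**Figure D3:**
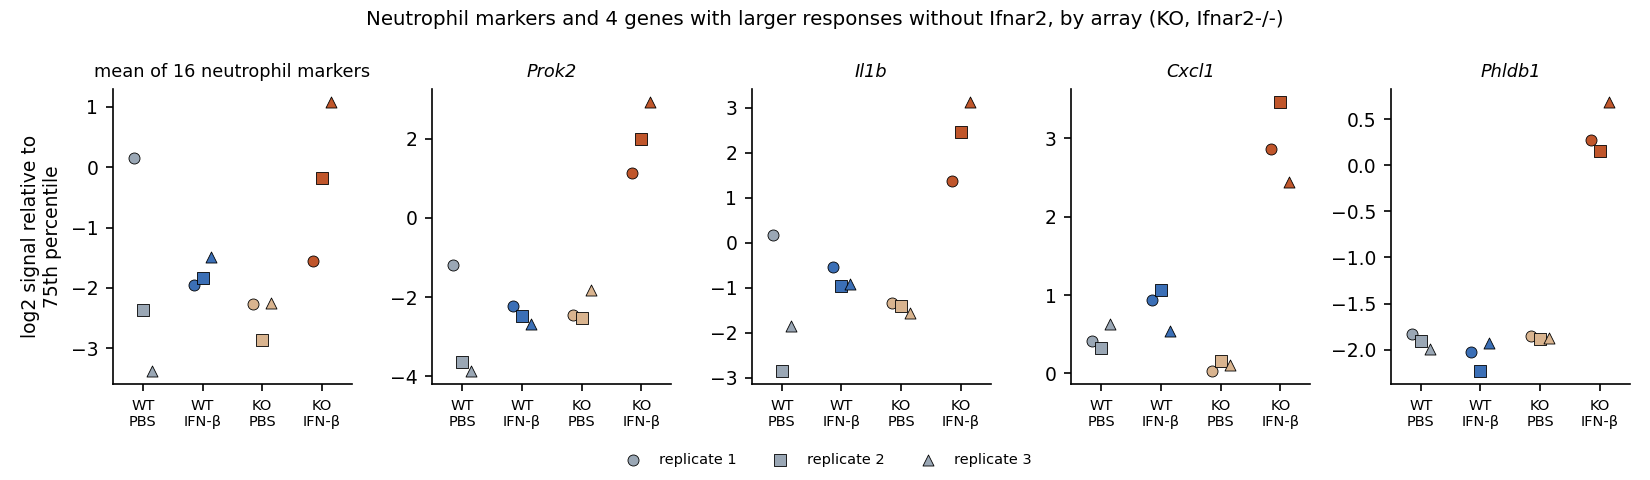
Mean relative signal (log2) of 16 neutrophil markers and relative signal of Prok2, Il1b, Cxcl1 and Phldb1 on each array, with the marker shape giving the replicate. Replicate 1 of the wild-type PBS group is high for the markers, Prok2 and Il1b and lies at 0.42 for Cxcl1, and the Ifnar2-/- (KO) IFN-β arrays of Phldb1 lie between 0.16 and 0.68.

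The responses of 5 genes opposed each other. Cmpk2, a mitochondrial nucleotide kinase and a close neighbour of Rsad2 in the genome, went from -2.01, -1.63 and -1.57 to 7.03, 6.80 and 6.85 in wild type. Without Ifnar2 it went from -2.30, -2.61 and -2.67 to -3.25, -3.63 and -4.30, a response of -1.2 ± 0.24 that passed the test narrowly (adjusted p = 0.0458). Ifit3 and Mx2, with Ifnar2-/- responses of -1.11 and -1.07 that did not pass, lay near it. Mmd, a membrane protein that increases as monocytes become macrophages, went from -0.69, -0.95 and -0.56 to -3.14, -2.84 and -3.08 in wild type and from -0.15, -0.05 and 0.10 to 0.74, 1.08 and 0.89 in Ifnar2-/- mice. The groups of neither genotype overlapped, and the responses were -2.28 ± 0.14 and 0.94 ± 0.14. Mgst2, of leukotriene synthesis (0.89 and -1.23), Cdc42ep2, an effector of the GTPase CDC42 (-0.54 and 1.27), and Creg2 completed the class. Creg2 was not well above background on any wild-type IFN-β array, and its fall in wild type was at least 1.29-fold. Its Ifnar2-/- response of 1.51 rests on signals near background, as 1 array of each Ifnar2-/- group was well above it. The differences of Cmpk2, Mmd, Mgst2 and Cdc42ep2 passed the test in each of 25 other settings. The class itself needs both responses to pass and was less stable. Of 27 settings it was kept in 20 for Mmd, 15 for Cdc42ep2, 7 for Cmpk2, 7 for Mgst2 and 6 for Creg2.

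**Figure D4:**
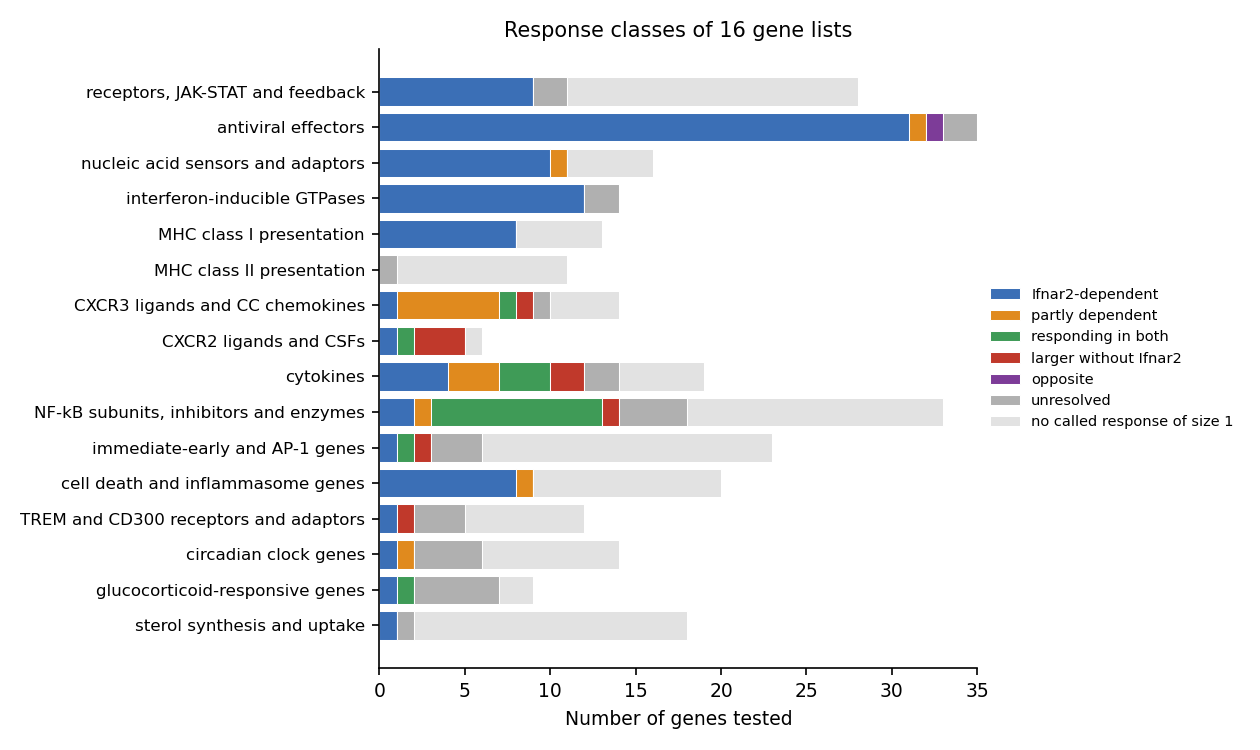
Number of tested genes of each of the 16 gene lists in each response class. Antiviral effectors, sensors and GTPases are mostly Ifnar2-dependent, and 6 of 14 CXCR3 ligands and CC chemokines are partly dependent. Of 33 genes in the NF-kB list, 10 are in the class that responded in both genotypes.

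The 19 cytokines were divided among the classes. A negative difference passed the test for 8 and a positive one for 3 (background 9.09% and 8.68%). Tnfsf10, the death ligand TRAIL, had responses of 5.91 and -1.04, Il15, which sustains natural killer cells, 4.66 and -0.53, and Ifng, interferon gamma, 4.20 and 0.27. Besides Il1b and Tnfsf9, Tgfb1 had a positive difference, of 0.68. Vegfa, a growth factor for vessels, had responses of -0.41 and 1.46 and a difference of 1.87 that did not pass. With the slide as a block 7 of the 11 cytokines passed.

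Of 23 immediate-early and AP-1 genes 2 had a negative difference (background 9.09%), Atf3 (responses 3.00 and 1.23) and Zfp36 (1.44 and 0.48), and 4 a positive one (background 8.68%). The positive ones were Nr4a1, Fosl2 (-0.82 and 0.68), Fos (-0.63 and 0.63) and Myc (-0.14 and 0.71), and the list's median responses were 0.28 and 0.48. The slide block left 2 of the 6 calls, in a fit where 1921 of all 18276 genes passed in either direction. Among 12 TREM and CD300 receptors 3 had a positive difference (background 8.68%), Treml4, Treml1 (-2.93 and -0.57) and the inhibitory receptor Cd300a (-0.82 and 0.39), and the block left 1. Trem1, an amplifier of inflammation on myeloid cells, had responses of 2.32 and 3.43 and a difference of 1.11 that did not pass.

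Of 14 tested clock genes 4 had a positive difference (background 8.68%): Nr1d1, Tef (-2.17 and -0.59), Bhlhe40 (-0.80 and 0.57) and Cry2 (-0.77 and -0.07). Their median responses were -0.79 and -0.02, and 2 of the 4 differences passed with the slide as a block. Of 9 glucocorticoid-responsive genes Sgk1 had a negative (1.34 and -0.28) and Errfi1 a positive difference (-0.80 and 0.23), counts near the background of 9.09% and 8.68%, and that of Sgk1 did not pass with the slide as a block (adjusted p = 0.0906). The 18 genes of sterol synthesis and uptake had median responses of -0.35 and 0.17. Mvd, an enzyme of the mevalonate pathway, had a positive difference of 1.17, which did not pass with the block (adjusted p = 0.175).

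Promoter letters were set beside the classes as a feature that the class rule did not use. RefSeq windows of 300 bases (250 before and 50 after the start, GRCm38.p6) were used for the 9098 tested genes with a single window in the table. The interferon-stimulated response element was present in 3.58% of 22862 single windows and in 2.66% of genes with no called response of size 1. Among raised dependent genes it was present in 63 of 553 (11.4%), and in 8 of 446 lowered dependent genes (1.79%). The share followed the wild-type response: 5.38% of genes raised by 1 to 2 units, 14.9% of those raised by 2 to 4, and 30.4% (21 of 69) of those raised by 4 or more. It was 4 of 19 among raised partly dependent genes, 1 of 34 among raised genes responding in both, and 0 of 16 among raised genes with a larger response without Ifnar2.

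The NF-kB motif was present in 4.26% of all single windows and 5.97% of raised dependent genes. Its share in that class also went with the wild-type response, at 3.16%, 7.74% and 10 of 69 over the same bins, and the AP-1 and GAS motifs both stood at 15.9% in the highest bin. The NF-kB motif was present in 6 of 19 raised partly dependent genes (31.6%), 6 of 34 raised genes responding in both (17.6%) and 5 of 16 with a larger response without Ifnar2 (31.2%). The motif TGANTCA of AP-1 was in 7.98% of all windows, 6 of 19 partly dependent and 5 of 34 genes responding in both. The GAS motif of STAT factors (TTC, any 3 bases, GAA) was in 8.49% of all windows and 8.5% of raised dependent genes. Matches of different motifs may overlap, the small classes rest on few windows, and a match is a description of letters, not of binding.

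**Figure D5:**
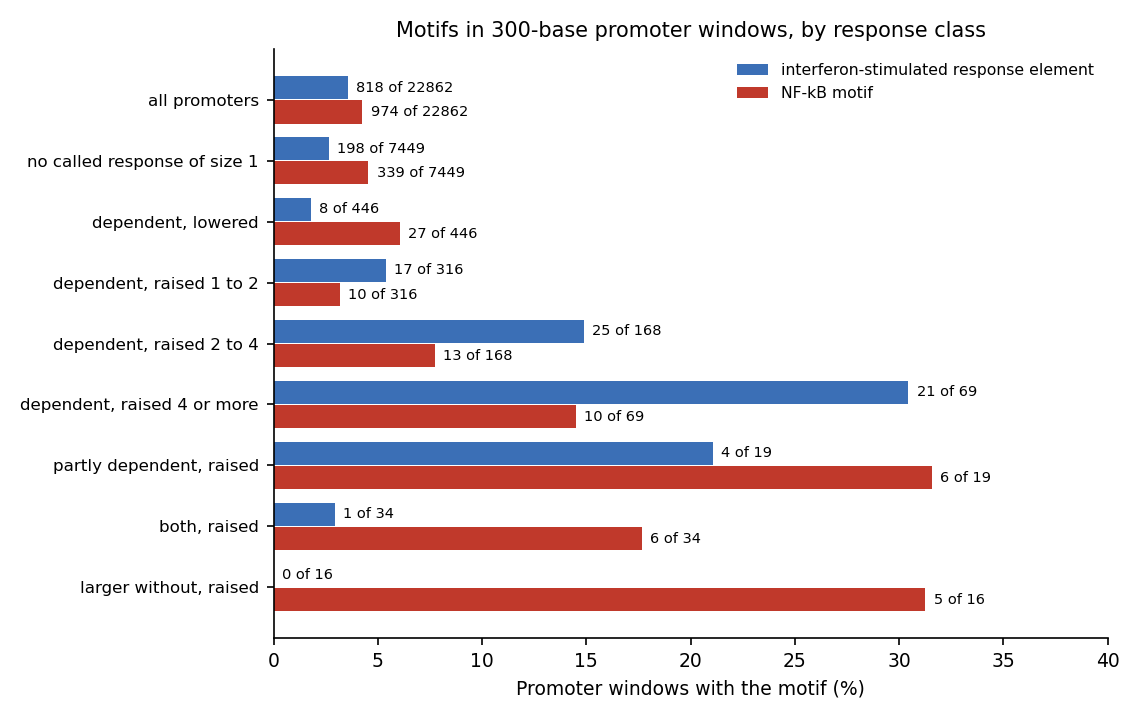
Share of promoter windows (x axis, percent) that hold the interferon-stimulated response element or the NF-kB motif, by class and by the size of the wild-type response (log2), with the count of windows beside each bar. The response element reaches 30.4% in dependent genes raised by 4 or more, and the NF-kB motif reaches 31.2% to 31.6% in partly dependent genes and in genes with a larger response without Ifnar2.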

How the data were processed

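Scans of the 12 single-colour Agilent arrays were read by Feature Extraction 9.5.3.1, per the submitters' processing notes. The authors deposited a processed signal per spot, a linear intensity already corrected for background and spatial trend per the file headers, and flags for spots above background, saturated or outlying. From these, log2 of the deposited intensity minus each array's 75th percentile was computed, outlier spots were left out and spots of a probe averaged. Kept were probes flagged above background on each array of 1 group or more (27718), with the brightest probe standing for a gene (18276 genes). The series' value table, deposited by the authors, equalled the scanner signals (0 of 45018 spots differed). Probe names came from RefSeq (GRCm38.p6) by accession (22951 probes), symbol (6659) or older symbol (3109), and 8455 kept the file's name.

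All arrays entered 1 limma 3.58.1 fit of 4 group means in R 4.3.3, two-sided, with Benjamini-Hochberg adjustment over all genes, an adjusted p under 0.05 as threshold, and 8 residual and 2.38 prior degrees of freedom. The fit and the class rule were tested on simulated data. Genes were named by a rule of largest size per class and lowest and highest difference per list. The 16 gene lists (307 entries, 285 tested), 10 marker lists (108 entries, 98 tested), classes and members were chosen with earlier results of these data known. Alternatives were the background correction, normalization, filters, gene summary, prior, slide and replicate blocks, thresholds and leaving out arrays. Results for some genes are not reported here. Motifs were searched with Python 3.11.15. With 3 arrays a group, their number sets the precision.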

Additional observations from a re-analysis of the deposited data

Results flagged for a closer look

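The same contrast, IFN-β against PBS, gave unlike effects in the 2 genotypes for 3247 genes by the test of the difference itself, and the genes below stand out because the Ifnar2-/- response was the larger one or ran the other way. The difference between responses (log2) was 3.84 for Prok2, 3.05 for Il1b, 2.54 for Treml4, 2.43 for Cxcl1, 2.39 for Phldb1 and 2.29 for Gpr84, all raised more without Ifnar2. It was -0.99 for Net1, which was lowered in Ifnar2-/- mice. Over 25 other settings the difference of Cxcl1 lay between 2.16 and 2.71, that of Phldb1 between 2.15 and 2.67 and that of Gpr84 between 1.74 and 2.61, and each passed the test in all 25. Il1b passed in 12 of 25, with adjusted p values from 0.0126 to 0.496, and Net1 in 14. Among genes with opposite responses the difference was -9.83 for Cmpk2, 3.22 for Mmd, 2.39 for Creg2, -2.12 for Mgst2 and 1.81 for Cdc42ep2. That of Creg2 rests on signals near background.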

How the results depend on the processing

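With normexp background correction 333 genes responded in Ifnar2-/- mice, 440 responders were unresolved, 46 had a narrow interval, and the difference of Il1a was reversed at 0.66. Quantile normalization left 2 opposite genes, and the mean of a gene's probes 1. With no scaling 2802 differences were positive, with probes above background on all 12 arrays 722 genes were unresolved, and a prior with trend and robust fitting gave 359 Ifnar2-/- calls. With no filter on dim probes there were 983 positive differences, 68 Ifnar2-/- calls, and 14 partly dependent, 35 both, 12 larger, 0 opposite and 14 narrow-interval genes. With the slide as a fixed block 1921 genes differed (777 positive), wild-type calls numbered 4427 and Ifnar2-/- calls 118, with 23 partly dependent, 46 both, 15 larger, 3 opposite and 16 narrow-interval genes. Calls in the lists were then 7 (cytokines), 3 (NF-kB), 2 (immediate-early), 1 (TREM), 2 (clock) and 1 (sterol). As a random block the slide left 2 opposite genes.

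Without the arrays of slide 3, which left 1 array in each Ifnar2-/- group, assumed to vary like the others, 1290 genes differed (829 negative, 461 positive) and 94 responded in Ifnar2-/-. The classes then held 1014 dependent, 2 partly dependent, 9 both, 60 larger, 23 opposite, 2269 unresolved and 3 narrow-interval genes. With no size limit there were 3046 dependent, 9 opposite, 4034 unresolved and 52 narrow-interval genes. At an adjusted p under 0.01 there were 1321 dependent, 6 partly dependent, 19 both, 7 larger, 0 opposite and 9 narrow-interval genes. Leaving out the 2 arrays of highest neutrophil marker level, chosen after seeing the data, gave 121 Ifnar2-/- calls, 27 partly dependent and 3 opposite genes.

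Leaving out each array in turn gave 2415 to 3960 differences (1329 to 1864 negative, 1086 to 2096 positive), 5817 to 7964 wild-type calls and 32 to 298 Ifnar2-/- calls. The Ifnar2-/- calls were 64, 32 and 81 without Ifnar2-/- PBS replicates 1, 2 and 3, 119 and 131 without wild-type PBS replicates 1 and 2, and 122 without wild-type IFN-β replicate 1. Larger responses without Ifnar2 were 15, 10 and 15 without those Ifnar2-/- PBS replicates, 17 without wild-type IFN-β replicate 2 and 48 without Ifnar2-/- IFN-β replicate 1. The partly dependent class was smaller also without each wild-type PBS array (26, 27 and 26), wild-type IFN-β replicates 1 and 2 (23 and 27) and Ifnar2-/- IFN-β replicate 2 (24). The classes ranged over 1667 to 2358 dependent, 6 to 44 partly dependent, 16 to 127 both, 10 to 48 larger, 0 to 9 opposite, 882 to 1470 unresolved and 7 to 50 narrow-interval genes. Same-numbered samples correlated between -0.12 and 0.51 in their deviations, so the numbers were not taken as pairs; a replicate block gave 3000 differences, 138 Ifnar2-/- calls, 1930 dependent and 3 opposite genes. The cause of these changes was not tested.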

Other observations

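Outside the gene lists, Hspa1a, an inducible heat shock protein, had responses of 4.07 and 1.65 and was partly dependent, as was Slamf8, a surface protein of myeloid cells (4.07 and 1.05). Among genes that responded in both genotypes were Flrt3, a membrane adhesion protein, Tgm2, a transglutaminase (3.89 and 3.61), and Vcam1, a vascular adhesion molecule (3.36 and 2.57). Klf15, a glucocorticoid-induced transcription factor, was lowered in both, by at least 2.65-fold in wild type, where the IFN-β group was not well above background, and with a response of -2.22 in Ifnar2-/-. Flrt3 was not well above background in either PBS group, and its responses were at least 4.8-fold and at least 12.1-fold. These genes were chosen after their values were seen.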
